A study of Arabidopsis thaliana with 6 samples.

Results

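Flavonoids are plant phenolics built from phenylalanine by way of the phenylpropanoid pathway. Chalcone synthase and the other early enzymes make flavonols such as quercetin glycosides, and the late enzymes carry dihydroflavonols on to anthocyanins and, in the seed coat, to the proanthocyanidins that colour the testa brown. In Arabidopsis the early genes are driven by flavonol MYB factors such as MYB12, the late genes by complexes of a MYB, a bHLH and a WD40 protein, and chalcone synthase is a classical light-induced gene. The 10 genes described here are a list of locus identifiers set by their role in the pathway, with earlier results of these data known, out of 30509 genes on the array, and all 10 were measured. They are the early enzymes TT4 (AT5G13930), TT5 (AT3G55120), F3H (AT3G51240), TT7 (AT5G07990) and FLS1 (AT5G08640), the late enzymes DFR (AT5G42800), LDOX (AT4G22880) and BAN (AT1G61720), and the regulators MYB12 (AT2G47460) and MYB75 (AT1G56650, also PAP1).

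The RNA came from whole germinated Col-0 seeds at the stage of radicle protrusion. DT (desiccation tolerant) seeds were kept for 3 d in the dark at 22°C in polyethylene glycol (PEG), an osmoticum that withdraws water, at -2.5 MPa and then rinsed, and DS (desiccation sensitive) seeds were taken without treatment from constant white light, with 3 biological replicates and 3 SNPtile arrays in each group. Both groups had the same cold stratification (72 h at 4°C) and germination at 22°C. Darkness and 3 more days after protrusion came together with PEG, and the effects of the 3 cannot be told apart. In whole seeds, fewer cells of a type and less RNA per cell cannot be told apart either. The deposited values are quantile normalized log2 signals with 1 value per gene. Precision is limited by having 6 arrays.

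Arrays correlated across genes at 0.957 to 0.975 within DT and 0.972 to 0.977 within DS, and DT replicate 1 gave the 2 lowest of these values. The median log2 difference of all genes was -0.02. As a measure of background, 95% of 2862 annotated pseudogenes averaged at or below 4.96 in DT and 4.93 in DS. Signals under these limits are called background here, which is a rough guide because probes differ in brightness. RAB18, an ABA-responsive dehydrin, was higher on all DT arrays. It read 8.83, 8.92 and 8.89 in DT seeds, against 4.94, 4.92 and 5.24 in DS seeds. RD29B (log2 difference 2.40) and the LEA gene EM1 (3.00) also rose.

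After PEG incubation 3 of the 5 early enzymes, TT4, TT5 and FLS1, fell by 0.77 to 1.08 on the log2 scale, and 0 of the 3 late enzymes were called. Both other early enzymes, F3H and TT7, and all late enzymes were at background in both groups. Of the regulators, MYB12 fell by a small amount and MYB75 was not called. In all, 4 of the 10 genes were called lower and 0 higher at a Benjamini-Hochberg adjusted p of at most 0.05 from limma. Of all genes tested, 19.9% (6085) were called lower and 9.97% (3043) higher. That split moved to 5226 lower and 4052 higher with arrays centred on their medians, and to 5026 and 4484 with quantile normalization repeated, with the same 4 members lower in both. The median log2 difference of the 10 genes was -0.08. Among genes above background in DS, a choice that by itself favours lower calls, 44.0% were called lower, and the 3 members above background in DS were TT4, TT5 and FLS1. Of the pseudogenes, 1.82% were called lower and 2.38% higher.

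**Figure D1:**
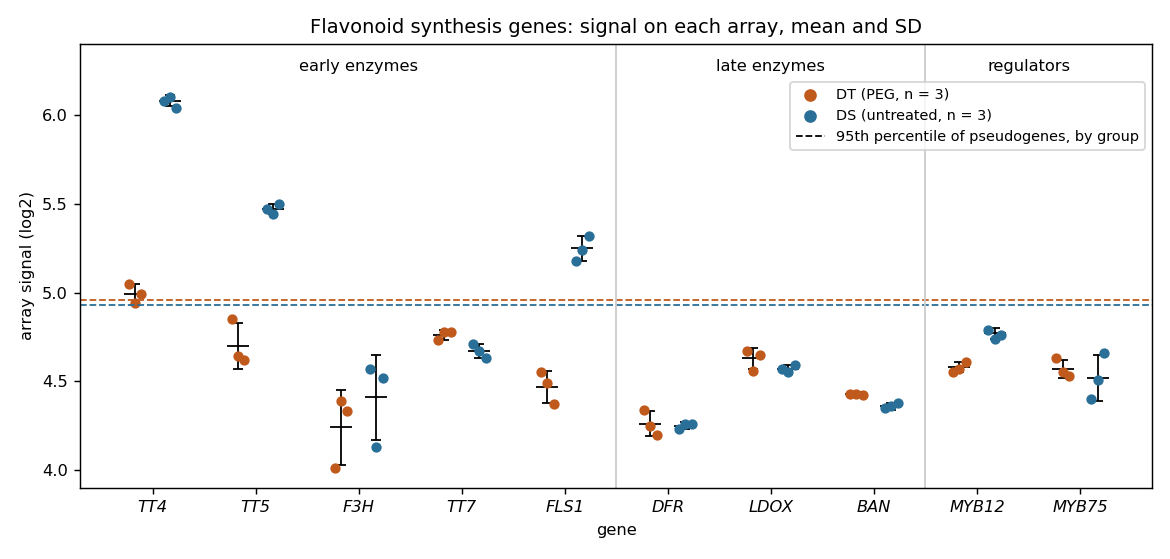
Array signal (log2) of the 10 genes on each array, DT left and DS right of each gene, with bars for the mean and SD (n = 3) and dashed lines for the pseudogene limits of 4.96 in DT and 4.93 in DS. TT4, TT5 and FLS1 lie above the limit in DS and near or below it in DT, while F3H, TT7, all late enzymes and both regulators lie below it in both groups.

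TT4, chalcone synthase, catalyses the first committed step of flavonoid synthesis and lies on chromosome 5 from 4488476 to 4490264 in the RefSeq annotation of TAIR10.1, with 2 exons. Its log2 signal was 5.05, 4.94 and 4.99 in DT seeds, against 6.08, 6.10 and 6.04 in DS seeds. All DT arrays lay about 1 unit under all DS arrays, at the edge of background. The means were 4.99 ± 0.06 in DT and 6.08 ± 0.03 in DS (SD, n = 3 each), a difference of -1.08 with a 95% interval from -1.20 to -0.97 and an adjusted p of 3.85e-06 from limma. TT4 was also the only member that passed the filter of the study's methods, a log2 difference of at least 1 with an unadjusted p of at most 0.05, which 1.36% of all genes passed in the same direction. With quantile normalization repeated on the gene values its difference was under 1 in size and it no longer passed that filter.

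TT5, chalcone isomerase, closes the flavanone ring (chromosome 3 from 20430059 to 20431597, 4 exons). It read 4.85, 4.64 and 4.62 in DT seeds, against 5.47, 5.44 and 5.50 in DS seeds. The groups did not overlap, as in 27.0% of all genes in this direction, and the DT values were at background, with replicate 1 the highest. The difference was -0.77 (95% interval from -0.92 to -0.61, adjusted p = 9.61e-05 from limma). FLS1, flavonol synthase, makes flavonols from dihydroflavonols (chromosome 5 from 2803833 to 2805606, 4 exons). It read 4.55, 4.49 and 4.37 in DT seeds, against 5.18, 5.24 and 5.32 in DS seeds. These groups did not overlap either, and the difference was -0.78 (95% interval from -0.93 to -0.63, adjusted p = 6.37e-05 from limma). In DT seeds TT5 and FLS1 were at background, where transcript amounts are not resolved.

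F3H, flavanone 3-hydroxylase, acts between TT5 and FLS1 (chromosome 3 from 19025192 to 19026872). It read 4.01, 4.39 and 4.33 in DT seeds, against 4.57, 4.13 and 4.52 in DS seeds. The groups overlapped, and its replicates were widely spread, with an SD larger than that of 94.5% of genes in DT and 97.4% in DS. The difference of -0.17 had an interval from -0.49 to 0.16 (adjusted p = 0.453 from limma). Both groups were at background. TT7, a cytochrome P450, adds the 3′-hydroxyl group of quercetin (chromosome 5 from 2560328 to 2563137). It read 4.73, 4.78 and 4.78 in DT seeds, against 4.71, 4.67 and 4.63 in DS seeds. Its DT arrays lay just above its DS arrays, as in 15.5% of all genes, by 0.09 (adjusted p = 0.197 from limma).

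DFR, dihydroflavonol reductase, is the entry to the late steps (chromosome 5 from 17164093 to 17166032). Its signal was 4.34, 4.25 and 4.2 in DT seeds, against 4.23, 4.26 and 4.26 in DS seeds. LDOX, the leucoanthocyanidin dioxygenase that forms coloured anthocyanidins (chromosome 4 from 12004726 to 12006209), read 4.67, 4.56 and 4.65 in DT seeds, against 4.57, 4.55 and 4.59 in DS seeds. In both genes the groups overlapped, and the intervals of the difference ran from -0.11 to 0.13 for DFR and from -0.05 to 0.17 for LDOX. BAN, anthocyanidin reductase of the seed coat (chromosome 1 from 22790966 to 22792803), read 4.43, 4.43 and 4.42 in DT seeds, against 4.35, 4.36 and 4.38 in DS seeds. Its DT arrays lay above its DS arrays, as in 15.5% of all genes, by 0.07 (interval from -0.03 to 0.16, adjusted p = 0.316 from limma). All late values were under the pseudogene limits, where transcript amounts are not resolved, and no change was called. Some genes under both limits were called, MYB12 among them.

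The early and late steps were set against each other as the deviation of each array from the DS mean of each gene. Averaged over the 5 early enzymes, the deviation was -0.54, -0.53 and -0.56 on the DT arrays, against 0.03, -0.06 and 0.03 on the DS arrays. For the 3 late enzymes it was 0.09, 0.02 and 0.03 on the DT arrays. The DS arrays gave late deviations of -0.01, 0.00 and 0.02. The early minus late value was -0.62, -0.55 and -0.59 in DT seeds, against 0.04, -0.05 and 0.01 in DS seeds. These groups did not overlap, but the DS values are centred by definition. The lack of overlap adds nothing to the falls of the called early genes. The difference between early and late steps, -0.59, is a summary of chosen genes and is given without a test. It became -0.83 with medians in place of means. It rests on TT4, TT5 and FLS1, and it sets genes above background in DS against genes that were not.

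**Figure D2:**
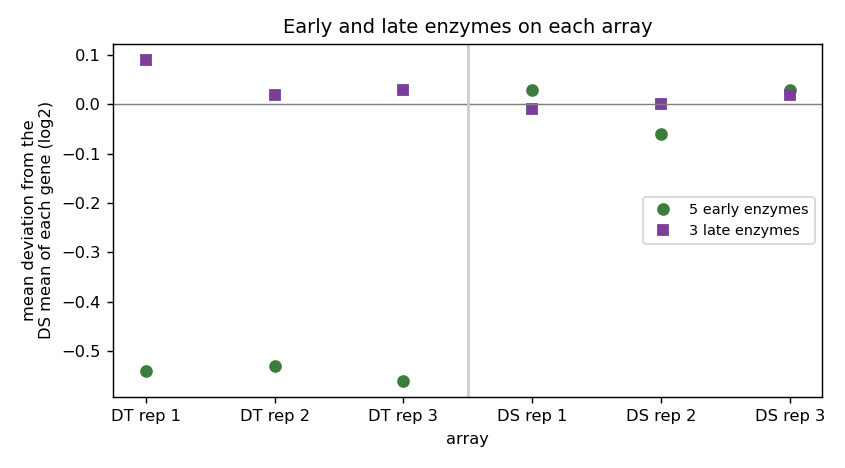
Mean deviation from the DS mean of each gene (log2, vertical axis) on each of the 6 arrays, for the 5 early and the 3 late enzymes. The early points lie between -0.56 and -0.53 on the DT arrays and near 0 on the DS arrays, while the late points stay between -0.01 and 0.09 on all 6. The DS points average to 0 by definition.

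MYB12, the activator of the early genes (chromosome 2 from 19476326 to 19479597), read 4.55, 4.57 and 4.61 in DT seeds, against 4.79, 4.74 and 4.76 in DS seeds. The groups did not overlap, as in 27.0% of all genes in this direction, and MYB12 fell by 0.19 (95% interval from -0.29 to -0.09, adjusted p = 0.0128 from limma), with both groups at background. MYB75, an activator of anthocyanin synthesis (chromosome 1 from 21233555 to 21235292), read 4.63, 4.55 and 4.53 in DT seeds, against 4.40, 4.51 and 4.66 in DS seeds. The DT values lay inside the DS range, and the difference was 0.05 (interval from -0.12 to 0.21, adjusted p = 0.689 from limma).

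Their closest relatives were looked at beside them. MYB111, which shares the flavonol role of MYB12, fell by 0.19, from limma with an adjusted p of 0.0113 and both groups at background, and MYB11 differed by 0.04. MYB90 (PAP2), a close copy of MYB75, read 4.77, 4.49 and 4.67 in DT seeds, against 5.51, 5.46 and 5.34 in DS seeds. MYB90 was above background in DS and fell by 0.79 (adjusted p = 0.000192 from limma), while MYB113 and MYB114 had differences of -0.11 and -0.16 that were not called. The coding sequences of MYB75 and MYB90 are 84.0% identical and share a run of 42 bases. MYB75 shares a run of 33 bases with MYB114. The coding sequences of MYB12 and MYB11 are 64.4% identical and share a run of 36 bases. Signal shared between such relatives through common probes was not tested. FLS1 shares at most 68.5% of its coding bases with FLS2 to FLS6 and no run over 21 bases, and the 5 FLS paralogs were at background, with differences from -0.06 to 0.08 and 0 called.

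The 500 bases before the start codon of each member were searched on both strands for words known from flavonoid promoters. One word was ACCTACC, a MYB recognition element. The wider class of AC elements was that word or the word ACCTAAC or the word ACCAACC or the word ACCAAAC. The G-box was CACGTG, and the core that every G-box contains was ACGT. The words were chosen with results of these data known, and a match is a description of the sequence. ACCTACC occurred in 3 of the 5 early genes, in 0 of the 3 late genes and in 0 of the 2 regulators, against 2.15% of 27443 protein-coding genes. An AC element of any kind occurred in 4 early genes, 1 late gene and 1 regulator, against 25.8% of all. The G-box occurred in 2 early genes, all 3 late genes and both regulators, against 9.3% of all. The ACGT core occurred in 4 early genes, all 3 late genes and both regulators, against 62.5% of all. The early sites are shown because TT4, TT5, F3H and FLS1 hold an AC element whether or not they were called, and those of the late genes for their G-boxes. FLS1 holds the word ACCAAAC and no ACCTACC, and DFR and MYB75 hold AC elements too. Capitals mark the matched word, each line runs 5′ to 3′ on the strand of the gene, and GGTAGGT is ACCTACC on the opposite strand.

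TT4, 144 bases before the start codon, chr5:4488607-4488636: ccgtccatctaACCTACCacactctcatct
TT4, ACGT core 173 bases before, chr5:4488576-4488605: ctaacaactagacACGTagatcttcatctg
TT5, 101 bases before, chr3:20431498-20431527: taactattgctACCTACCcttctctcttct
TT5, G-box 143 bases before, chr3:20431541-20431570: aaaacgaaagtaCACGTGcttacacatcca
F3H, 143 bases before, chr3:19025255-19025284: agtagtaccgtGGTAGGTagctagcgacct
FLS1, 193 bases before, chr5:2803805-2803834: caaaacttggtACCAAACtcgtgagtgacg
DFR, G-box 182 bases before, chr5:17166029-17166058: accaacgttcccCACGTGcttctccggttg
LDOX, G-box 452 bases before, chr4:12006494-12006523: agtagaggtgaaCACGTGgagacacgctta
BAN, G-box 154 bases before, chr1:22792894-22792923: tatttcaaagatCACGTGcttaccttctaa

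The spacing between an AC element and an ACGT core varied among the members. DFR, which was not called, held the AC element ACCAAAC 317 bases before its start codon beside an ACGT core at 324, closer than the words of TT4 and TT5 shown above, while in F3H the nearest ACGT core to the word at 143 lay at 320. TT7 held none of the searched words in its window.

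Of 61 other genes of the pathway and its branches, 24 were called lower and 1 higher, a share of 39.3% lower beside 19.9% of all genes. Their median difference was -0.11. Above background in DS were 25 of them, and 17 of these were called lower. Across the array, 44.0% of genes in that class were called lower. At the entry, 5 of 9 phenylpropanoid genes (55.6%) fell and 0 rose, beside 19.9% and 9.97% of all genes. All 5 were among 6 entry genes above background in DS. PAL1, a phenylalanine ammonia-lyase, read 4.47, 4.47 and 4.49 in DT seeds, against 4.95, 5.02 and 5.07 in DS seeds, and fell by 0.54 (adjusted p = 9.59e-05 from limma). PAL3, PAL2, 4CL1 and C4H also fell, with differences of -0.52, -0.22, -0.48 and -0.39, and PAL4 differed by -0.10 with overlapping groups. CHIL, a chalcone isomerase-like protein that assists chalcone synthase, fell by 0.57.

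Of 12 enzymes that decorate flavonoids, 6 (50.0%) fell and 0 rose, beside 19.9% and 9.97% of all genes. Above background in DS were 4 of them, and all 4 fell. Among the flavonol glycosyltransferases, UGT89C1, which adds a rhamnose to position 7, read 4.99, 4.93 and 4.98 in DT seeds, against 5.92, 5.85 and 5.87 in DS seeds, and fell by 0.91 (adjusted p = 6.03e-06 from limma). UGT78D1, a flavonol rhamnosyltransferase acting on position 3, fell by 0.86. UGT78D2 and UGT73C6 fell with differences of -0.31 and -0.46, with UGT73C6 at background in both groups. The largest fall was that of OMT1, a methyltransferase of flavonols and of lignin precursors, at 5.38, 4.96 and 5.04 in DT seeds, against 7.12, 7.12 and 7.16 in DS seeds, a difference of -2.01 (adjusted p = 6.65e-06 from limma). The anthocyanin-modifying UGT75C1, UGT79B1, 3AT1, 3AT2 and 5MAT were at background in both groups and not called, while SCPL10, an anthocyanin sinapoyltransferase also at background, fell by 0.28. Of 4 transport and oxidation genes (GSTF12, TT12, AHA10 and TT10), 0 were called and all were at background.

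The branches to lignin and sinapate esters use the same coumaroyl-CoA. Of 11 of their genes, 5 (45.5%) fell and 1 rose, beside 19.9% and 9.97% of all genes. All 5 that fell were among 10 genes above background in DS. Across the array, 44.0% of genes above background in DS were called lower. CCOAOMT1 (caffeoyl-CoA methyltransferase) fell by 1.18 and UGT84A2 (sinapate glucosyltransferase) fell by 1.17. CAD4, SNG1 and CAD5 fell with differences of -0.88, -0.76 and -0.31. HCT, C3H1, CCR1, F5H1 and REF1 were above background in both groups with differences between -0.06 and 0.02. The interval for CCR1, the reductase that enters the lignin branch, ran from -0.12 to 0.14. SNG2 rose by 0.17 at background, and it was not called without DT replicate 1, DT replicate 2, DS replicate 2 or DS replicate 3, where 0 pathway genes were called higher.

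**Figure D3:**
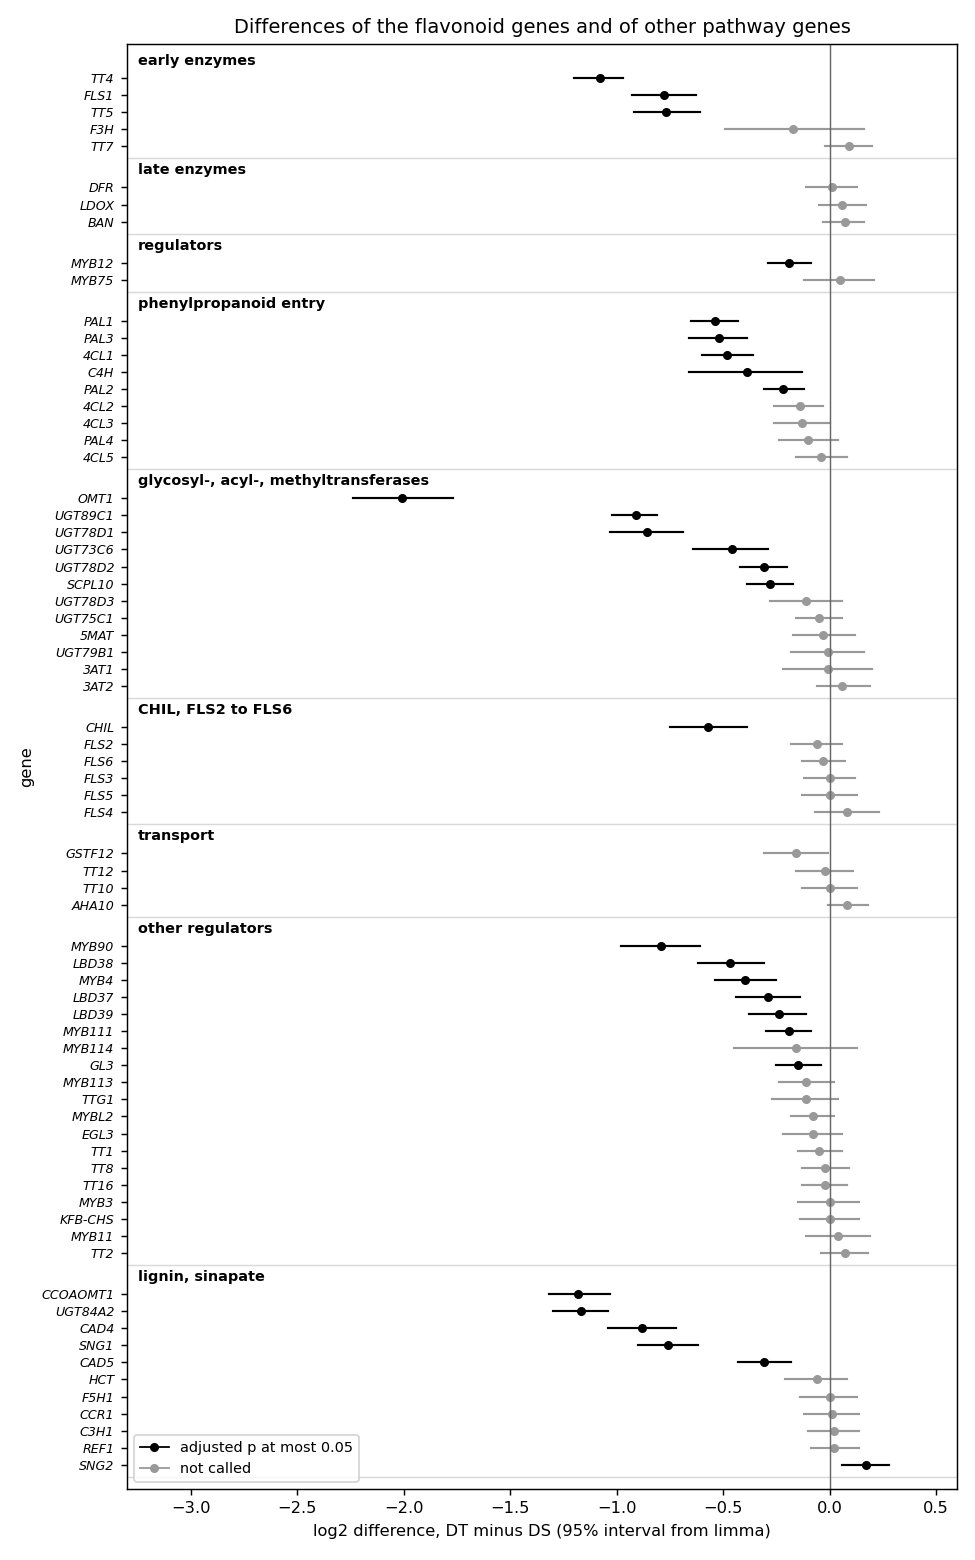
Log2 difference, DT minus DS, of the 10 flavonoid genes and 61 other pathway genes by list, with 95% intervals from limma (n = 3 each). Black marks genes with an adjusted p of at most 0.05. The called genes lie left of 0 except SNG2, in the bottom list, at 0.17.

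The genes with the profile most like that of TT4, outside the gene lists, were sought by the root mean square difference over the 6 arrays after subtracting the DS mean. They were GAPA-2 (AT1G12900, a subunit of chloroplast glyceraldehyde-3-phosphate dehydrogenase) at 0.042, AT1G62820 at 0.051 and CGLD27 (AT5G67370) at 0.051. GAPA-2 read 4.82, 4.71 and 4.69 in DT seeds, against 5.90, 5.83 and 5.84 in DS seeds. With 2 groups and 6 arrays such likeness reflects a fall of like size, and 325 genes had a difference at or below that of TT4.

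Light-induced genes moved in the same direction as TT4, TT5 and FLS1. All 5 of the list were called lower, beside 19.9% of all genes. Of these, 4 were above background in DS, a class in which 44.0% of all genes were called lower. HY5, the bZIP factor that drives chalcone synthase in light, read 4.80, 4.76 and 4.82 in DT seeds, against 5.35, 5.20 and 5.36 in DS seeds, and fell by 0.51. Its homologue HYH, ELIP1, ELIP2 and SIG5 fell with differences of -0.84, -2.27, -1.86 and -0.20, with SIG5 at background in both groups. ELIP1 read 5.95, 4.81 and 4.84 on the DT arrays, with replicate 1 far above the other two. DT replicate 1 was also the highest DT array for TT4, TT5 and FLS1 but the lowest for MYB12. It was the highest for 3 of the 5 light-induced genes, for 11 of the 24 other pathway genes called lower and for 26.0% of all genes called lower. Without it, all 4 members were still called. Of 3 dark-induced genes, ASN1 rose by 0.96, SEN1 differed by 0.00 and DIN10 fell by 1.69. The summed signal of the light list, on the linear scale, was 120.3 to 172.7 in DT seeds and 356.5 to 427.5 in DS seeds. The part of light in the falls of the flavonoid genes was not tested.

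**Figure D4:**
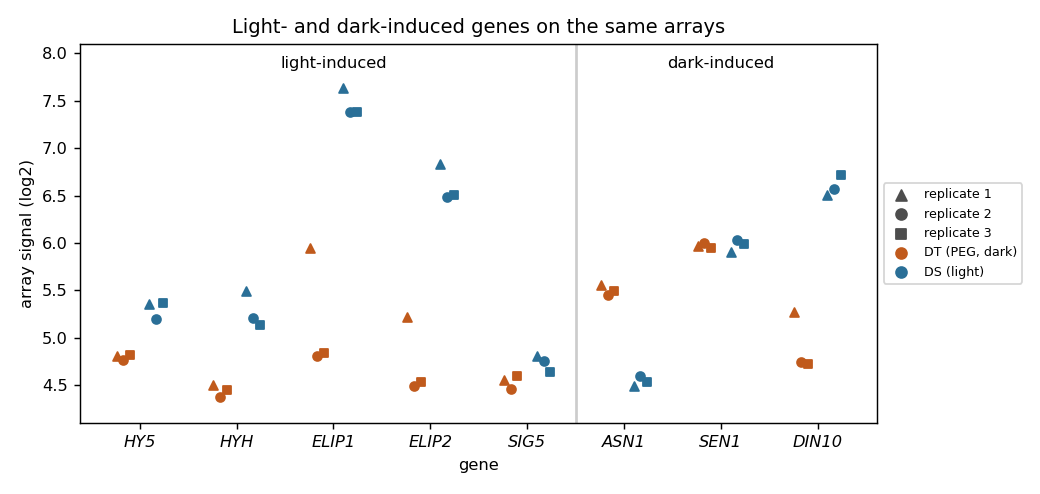
Array signal (log2) of light-induced and dark-induced genes on the same 6 arrays, DT left and DS right of each gene, with a marker shape for each replicate number. The DT points of all 5 light-induced genes lie under the DS points, and DT replicate 1 (triangle) stands above the other DT arrays for ELIP1, ELIP2 and DIN10.

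Whole germinated seeds hold embryo, endosperm and seed coat, and markers of each were measured. Of 7 seed coat genes 2 (28.6%, beside 19.9% of all genes) fell, the mucilage genes MUM4 and MUM2, with differences of -0.35 and -0.52. The summed signal of the list was 177.9 to 182.0 in DT seeds and 197.0 to 202.7 in DS seeds. The 4 genes tied to tannin synthesis in the seed coat, TT2, TT12, AHA10 and TT10, were at background in both groups, as was BAN. Of 3 endosperm genes 2 rose, beside 9.97% of all genes, MAN7 by 1.21 and EXPA2 by 0.54. EPR1 differed by 0.17 with overlapping groups and was not called. The sums of the endosperm list were 300.6 to 406.2 in DT seeds and 212.8 to 257.4 in DS seeds. Of 4 genes of the root apex 0 were called, with sums of 109.9 to 114.5 in DT seeds and 118.0 to 122.4 in DS seeds, and PLT1, PLT2 and WOX5 were at background. The part of these tissues in the falls of the flavonoid genes was not tested.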

How the data were processed

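The authors hybridized biotinylated cRNA from 3 DT and 3 DS replicates to Affymetrix Arabidopsis SNPtile arrays, read probe signals out in R using gene annotation derived from TAIR9, normalized them by quantiles and deposited 1 log2 value per gene. The step from probes to genes and any background correction are not given in the sources used here. The values were used as deposited. DT was compared with DS over all 30509 genes with limma 3.58.1 in R 4.3.3 (lmFit and eBayes, no covariate) and Benjamini-Hochberg adjustment over all genes. An exact test of 3 against 3 cannot give a p below 0.1. The fit was tested on simulated data. Locus identifiers were matched to RefSeq TAIR10.1 (30078 found), which gave positions, pseudogenes and sequences. Motifs and coding-sequence identity (global alignment) were computed in Python 3.11.15 with Biopython 1.88.

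The members and gene lists were chosen with earlier results of these data known. Named genes were all members, the largest called rise and fall of each list, paralogs of members, all genes of the light, dark and osmotic lists, and the 3 genes with the smallest root mean square difference from TT4. Other genes of the lists were named after their values were seen. Same-numbered arrays of the groups deviated together at r of 0.0612, -0.0103 and 0.104 across genes, so the replicate numbers were not taken as pairs. Alternatives covered scaling, the variance model, dim genes, a replicate block and each array left out.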

Additional observations from a re-analysis of the deposited data

How the results depend on the processing

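TT4, TT5, FLS1 and MYB12 stayed called lower under every alternative in which they were tested: arrays centred on the median, quantile normalization repeated, an intensity trend in the variance, only genes above the median signal (without MYB12, which was too dim to be tested), the replicate block and each array left out. The difference of TT4 lay between -1.12 and -0.97, of TT5 between -0.84 and -0.69, of FLS1 between -0.82 and -0.73 and of MYB12 between -0.21 and -0.15. The adjusted p of MYB12 from limma lay between 0.00679 and 0.0474, the highest without DS replicate 1. With the replicate block 4 members were lower and 0 higher, as without it. The count of members past the 2-fold filter was 0 with quantile normalization repeated, and the early minus late difference was -0.83 with medians. The count of other pathway genes called higher, 1, was 0 among genes above the median signal, where SNG2 was too dim to be tested. With each array left out, that count was between 0 and 1, at 0 without DT replicate 1, DT replicate 2, DS replicate 2 or DS replicate 3. The sign of DFR turned to -0.03 without DT replicate 1 and that of MYB75 to -0.01 without DS replicate 1, neither of them called. With each array left out DFR ranged from -0.03 to 0.04 and MYB75 from -0.01 to 0.12. Arrays of 3 replicates at signals near background limit what can be seen of F3H, TT7 and the late genes.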

Other observations

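Repressors of the pathway were measured beside its activators. MYB4, a repressor of phenylpropanoid genes, read 4.41, 4.46 and 4.31 in DT seeds, against 4.89, 4.72 and 4.77 in DS seeds, and fell by 0.40 (adjusted p = 0.00182 from limma), at background in both groups. The LBD factors that repress anthocyanin genes fell as well, with differences of -0.47 for LBD38, -0.29 for LBD37 and -0.24 for LBD39. LBD37 and LBD39 were at background in both groups, and LBD38 was above it in DS only. MYB3 and MYBL2, also repressors, differed by 0.00 and -0.08 and were not called. Of the partners of the late MYB complexes, the WD40 protein TTG1 was above background in both groups with a difference of -0.11 (95% interval from -0.27 to 0.04), the bHLH gene TT8 differed by -0.02, and GL3 fell by 0.15 at background. Of 19 regulators other than the members, 7 (36.8%) fell and 0 rose, beside 19.9% and 9.97% of all genes, and 15 of the 19 were at background in both groups.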
